A study of Mus musculus with 6 samples.

Results

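The genes described here encode the Mediator complex. They are 32 genes whose symbols match a fixed list of Mediator subunits, out of 13932 genes in the deposited gene table, and all 32 were present in both the gene and the junction table. The set was put together around Med24, whose 57 nt exon had already been seen to differ between the genotypes, so the values of that exon are given as a description with no test. The genes held 461 of the 151811 splice junctions, and 411 of the 461 (89.2%) joined a donor and an acceptor that the authors' table marks as known, against 86.9% over the whole table.

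The cells were mouse common myeloid progenitors, sorted from bone marrow as lineage-negative, c-Kit+, Sca-1-, CD34+ and Fcgamma-. They came from the donor marrow of transplanted mice, which was U2AF1(S34F)/rtTA in 1 genotype and U2AF1(WT)/rtTA in the other. Both genotypes thus carried a U2AF1 transgene with the rtTA transactivator, and both were induced for 5 days with doxycycline chow after more than 6 weeks of engraftment. U2AF1 recognises the AG at the end of an intron, and S34F is a recurrent substitution in myeloid neoplasms. There were 3 libraries per genotype, each from the pooled marrow of 4 to 5 mice. The genotypes were taken from the sample titles, because the genotype characteristic reads S34F for all 6 samples. The labels do not state the age or strain of the mice.

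Mediator is a large coactivator that carries signals from transcription factors bound at enhancers to RNA polymerase II at promoters. Its head and middle modules form the core that meets the polymerase, the tail module meets many transcription factors, and a separable kinase module built around CDK8 or CDK19 with cyclin C, MED12 and MED13 reversibly joins the core. MED14 is the scaffold that links the modules, and MED1 is the subunit best known for contacts with nuclear receptors and, in blood cells, GATA1.

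The gene counts summed to 46827909 to 51862032 per S34F library and 54727541 to 94562984 per WT library. Mitochondrial genes made up 2.63 ± 0.174% of counts in S34F and 1.72 ± 0.399% in WT (mean ± SD, n = 3; exact permutation p = 0.1, two-sided, the smallest this design can give). U2af1 lay between 119 and 136 CPM (counts scaled to an equal library total) in S34F and between 105 and 128 in WT, and the genotypes overlapped. Ddx3y, a Y-linked gene, was at 109 and 101 CPM in replicate 1 of S34F and of WT and at 0 in the other 4 libraries, so replicate 1 came from male cells in both genotypes. Of 7 progenitor markers 6 were in the table, and their summed level was 6376 to 8061 CPM in S34F and 5080 to 8723 in WT, while Ly6a, which encodes Sca-1, stayed between 1.08 and 1.84 CPM. The summed level of 9 dendritic cell markers was 290 to 466 CPM in S34F and 548 to 706 in WT. That of 4 megakaryocyte markers was 81.6 to 110 against 120 to 163, and that of 5 erythroid markers was 14.8 to 18.5 against 20.6 to 31.9. The other lists overlapped between the genotypes. Mature neutrophil markers summed to 901 to 1266 CPM in S34F and 785 to 1394 in WT. B cell markers gave 22.5 to 25.7 against 23.0 to 28.1, and T or natural killer cell markers 54.7 to 70.6 against 42.5 to 74.8. None of the listed markers found in the table was at 0 in every library. The part of these differences in the results on Mediator genes was not tested. WT replicate 1 was nearer to S34F replicate 3 (median absolute log2 difference over genes 0.12) than to WT replicates 2 and 3 (0.25 and 0.23). WT replicate 3 was the deepest library, yet 23 of the 461 Mediator junctions were listed at 0 in it, against 6 to 13 in the other libraries. In 17 of these 23 another library had at least 10 reads, so a 0 in the junction table need not mean that the form was absent.

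The sequences shown next are the ends of introns, where U2AF1 binds. Their part in the splicing differences was not tested. The Med24 exon is shown first with 20 intron bases on each side, the exon in capitals (mm9, chr11:98579003-98579099, minus strand).

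Med24 57 nt exon with flanks: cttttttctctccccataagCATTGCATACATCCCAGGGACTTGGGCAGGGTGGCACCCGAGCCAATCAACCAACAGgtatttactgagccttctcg

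The acceptors of the exons described below and of the exons after them follow, with the acceptor pairs of Med7 and Med13l, each as the last 20 intron bases and the first 10 exon bases, 5′ to 3′, with the last 3 intron bases in capitals. They were read from the mouse genome build that corresponds to mm9.

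Med24, 57 nt exon: cttttttctctccccatAAGcattgcatac
Med24, exon after it: ccttgctttttctccacCAGcctcctggac
Cdk19, 58 nt exon: tgctctatttttatttcTAGaaaccagcaa
Cdk19, exon after it: atatttgttttatttttCAGctgacatggg
Med1, 133 nt exon: ttttgatttgttcctgcTAGactgggctct
Med1, exon after it: cctaatttctttggtttCAGagctgtccag
Med14, 132 nt exon: taattattttcctttatTAGgaaatctgca
Med14, exon after it: attacacctttttttttCAGgaacccttga
Med23, 18 nt exon: cccatcctccaatgctcTAGaccttgaaca
Med23, exon after it: tatgtaatctctgcctaCAGcacaagcagc
Ccnc, 85 nt exon: taaactttattctttttTAGttatccaagc
Ccnc, exon after it: ttgtctaattgtattttTAGgtattctctg
Med28, 67 nt exon: tttatgttcccttcactCAGgcttgctttg
Med28, exon after it: gttaccactttcgtctgTAGgatgtctcgg
Med17, 138 nt exon: ttttaaattttcttttaAAGaactgctgca
Med17, exon after it: agtagagtgtgtgtctgCAGgtccatccag
Med7, nearer acceptor: ctttattttctctttgcCAGgatcatctgt
Med7, farther acceptor: atcgtgctctgtttcttTAGgttcttgatt
Med13l, nearer acceptor: cctgtctctcctttccgTAGtactggtgag
Med13l, farther acceptor: cttaaatggcacactaaCAGggcatgcata

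The Med24 exon was included more in S34F than in WT. MED24 is a tail subunit that associates with MED16 and MED23. The exon lies at chr11:98579023-98579079 in mm9, is 57 nt long (19 codons, with no stop codon in its annotated frame) and is present in 3 of 13 annotated transcripts, as coding sequence in 2. The junction into the exon had 85, 68 and 69 reads in S34F and 30, 30 and 36 in WT. The junction out of it had 87, 73 and 66 reads in S34F and 34, 30 and 30 in WT. The skipping junction, chr11:98577839-98579224, had 126, 101 and 158 reads in S34F and 186, 145 and 229 in WT. The inclusion level, which sets the mean of both inclusion junctions against the skipping junction, was 40.6%, 41.1% and 29.9% in S34F and 14.7%, 17.1% and 12.6% in WT. All 3 S34F libraries were above all 3 WT libraries, and S34F replicate 3 was the lowest of the S34F libraries. The means were 37.2 ± 6.30% and 14.8 ± 2.28% (SD, n = 3), a difference of 22.4 percentage points.

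With the junction into the exon alone, the exact 95% binomial interval was 24.5% to 36.8% in the lowest S34F library and 11.9% to 23.6% in the highest WT library. These intervals cover counting error only. As CPM of all junction reads in the library, the inclusion junctions (mean of both) gave 1.93, 1.72 and 1.57 in S34F and 0.688, 0.480 and 0.399 in WT, while the skipping junction gave 2.83, 2.46 and 3.68 in S34F and 4.00, 2.32 and 2.77 in WT. The included form was thus higher in every S34F library, and the skipping form overlapped between the genotypes.

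**Figure D1:**
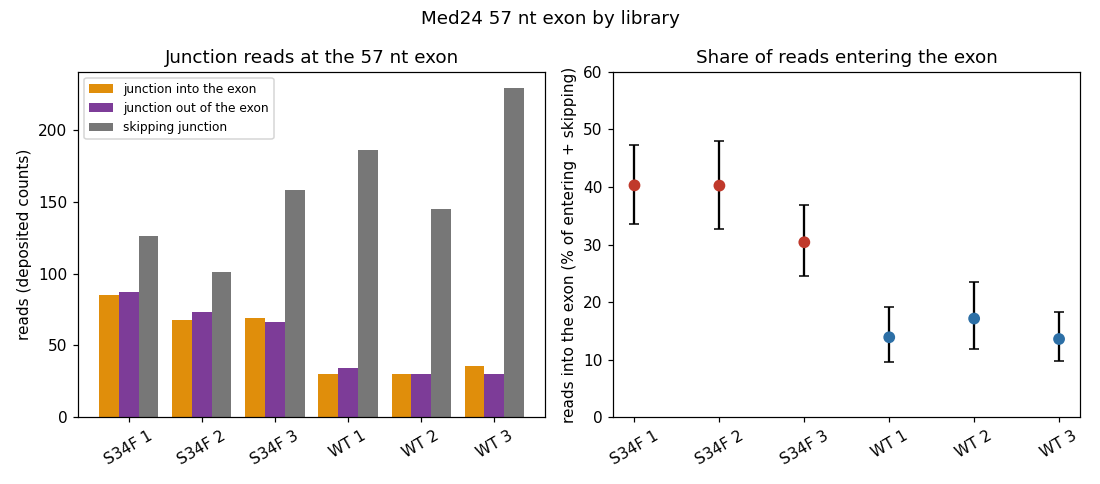
Med24 57 nt exon by library: reads of the junctions into and out of the exon and of the skipping junction (left, deposited counts), and reads into the exon as a percentage of entering plus skipping reads with exact 95% binomial intervals (right). The S34F libraries lie between 30.4% and 40.3% and the WT libraries between 13.6% and 17.1%.

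Beyond this exon, 23 cassette exons, 70 acceptor choices and 71 donor choices of Mediator genes had enough reads to be tested, and edgeR's quasi-likelihood test called 0 of them after Benjamini-Hochberg adjustment. The background was 1.05% of 7210 exons, 0.289% of 18667 acceptor choices and 0.174% of 19485 donor choices. At an unadjusted edgeR p under 0.05 there were 4 of 23 exons (13.5% over all exons), 9 of 70 acceptor choices (10.9%) and 7 of 71 donor choices (8.78%). With DESeq2, 0 of the 23 exons (1.36%), 2 of the 70 acceptor choices (1.37%) and 1 of the 71 donor choices (0.739%) were called, in Med7 and Med1. With limma the count was 0 of each (0.0%, 0.246% and 0.19%). The libraries of the genotypes did not overlap for 7 of the 23 exons (19.6%), 16 of the 70 acceptor choices (17.2%) and 15 of the 71 donor choices (14.6%). A change of 10 points or more was seen in 2 of the exons (10.1%), 6 of the acceptor choices (6.41%) and 1 of the donor choices (5.6%). A skipped exon appears in all 3 views, so these counts share events. The 7 exons without overlap include Med7 exons of 82 and 49 nt, which are nested and share their skipping and downstream reads. Cdk8 exons of 114, 129 and 144 nt among the 23 are nested in the same way. The median absolute change was 3.17 points for the Mediator exons and 2.71 for all exons. It was 1.85 against 1.86 points for acceptor choices and 1.48 against 1.80 for donor choices. In the authors' deposited table of junctions within genes, 5 of 460 Mediator junctions with an adjusted p were under 0.05 (0.34% over all junctions), namely both inclusion junctions of the Med24 exon, which chose the set, and 1 junction each of Med1, Cdk19 and Med7.

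In the kinase module, a 58 nt coding exon of Cdk19 had a lower inclusion in every S34F library, a difference that was not called. CDK19 is the paralogue of CDK8 and its alternative in the kinase module. The exon (chr10:40173821-40173878) is in both annotated transcripts and is not a multiple of 3 in length, so that leaving it out shifts the reading frame. Its inclusion was 76.5%, 76.0% and 78.2% in S34F and 87.5%, 85.7% and 92.8% in WT. The genotypes did not overlap, and the difference was -11.8 points (76.9 ± 1.17% against 88.7 ± 3.65%, SD, n = 3). The adjusted p was 0.0516 in edgeR and 0.0549 in DESeq2, 0.265 in edgeR with an estimated dispersion and 0.411 in limma. Without WT replicate 2 it was 0.0202 in edgeR, and without any other library it was 0.0760 to 0.281. With the replicate number as a block it was 0.00263 in edgeR and 0.105 in DESeq2. The skipping junction had 89, 98 and 102 reads in S34F and 55, 75 and 50 in WT, and its adjusted p in the authors' deposited table was 0.0186.

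Ccnc, which encodes cyclin C, the partner of both kinases, showed skipping of an 85 nt coding exon (chr4:21659365-21659449) in 8.33%, 6.90% and 4.39% of reads from the upstream donor in S34F and in 0.909%, 1.85% and 0% in WT. The skipping junction had 10, 8 and 5 reads against 1, 6 and 0, so the genotypes were apart on few reads (edgeR adjusted p = 0.370, DESeq2 adjusted p = 0.0957). In Med13l, which encodes an alternative to MED13, an acceptor 39 nt downstream of the annotated one (chr5:119171423 against chr5:119171384) took 10.1%, 7.96% and 5.33% of reads in S34F and 1.44%, 0% and 0% in WT. This acceptor lies in an exon that the annotation gives as untranslated (edgeR adjusted p = 0.232, DESeq2 adjusted p = 0.0925). In DESeq2 the adjusted p was 0.0142 without WT replicate 1 and 0.112 to 0.353 without any other library.

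In the middle module, the largest difference among the tested choices of Mediator genes was at the 5′ end of Med7, which encodes a core middle subunit. From the donor at chr11:46250511 the splice goes either to a nearer acceptor at 46253308, the start of a noncoding exon, or to a farther one at 46254065, just before the start codon. The farther acceptor took 28.9%, 16% and 25% of these reads in S34F and 57.8%, 59.8% and 68.8% in WT. Every S34F library was lower, by -38.8 points on average, on 11, 8 and 8 reads against 26, 52 and 64. DESeq2 called this choice (adjusted p = 0.00868) and edgeR did not (adjusted p = 0.135). The adjusted p in the authors' deposited table was 0.0237. Of the runs of DESeq2 without 1 library, only that without WT replicate 1 called it (adjusted p = 0.0377). The adjusted p was 0.0562 to 0.253 without an S34F library and 0.0829 without WT replicate 2, and DESeq2 gave none without WT replicate 3. The difference was not seen from another Med7 donor, at chr11:46250693, which had more reads (156 to 293 per library against 32 to 93). From there the same farther acceptor took 18.6%, 16.4% and 29.5% in S34F and 28.6%, 13.3% and 17.0% in WT. These shares overlapped (edgeR adjusted p = 0.891). The gene level of Med7 was 40.6, 35.9 and 32.9 CPM in S34F and 33.9, 38.7 and 31.2 in WT, and it overlapped between the genotypes.

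Med1 showed skipping of a 133 nt coding exon (chr11:98041331-98041463), which is not a multiple of 3. The skipping junction had 14, 25 and 17 reads in S34F and 0, 0 and 4 in WT, or 4.05%, 8.28% and 4.71% against 0%, 0% and 0.787% of reads from the upstream donor. The form was higher in every S34F library. DESeq2 called it (adjusted p = 0.0370), edgeR did not (adjusted p = 0.128), and the adjusted p in the authors' deposited table was 0.00150. In DESeq2 the adjusted p was 0.00675 without WT replicate 3, 0.0632 to 0.271 without any other library and 0.0942 with the replicate block. At a donor near the 3′ end of Med1, chr11:98019643, which is joined to 5 acceptors, the acceptor at 98015563 took 21.6%, 26.4% and 29.3% of reads in S34F and 16.5%, 13.6% and 11.8% in WT (edgeR adjusted p = 0.352). The acceptor at 98014439 took 23.3%, 24% and 17% against 33.0%, 19.9% and 50.4%, which overlapped, and its mean difference of -13.0 points rested on WT replicate 3.

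A 132 nt exon of the scaffold gene Med14 (chrX:12266455-12266586, in frame) was included at 56.4%, 52.4% and 50% in S34F and 57.4%, 66.5% and 72.4% in WT. The difference of -12.5 points came mainly from WT replicates 2 and 3, while WT replicate 1 lay close to S34F replicate 1 (edgeR adjusted p = 0.455). In the tail, an 18 nt exon of Med23 (chr10:24603010-24603027, 6 codons) was included at 18.4%, 13.6% and 17.7% in S34F and 23.8%, 24.1% and 28.8% in WT (edgeR adjusted p = 0.339). MED23 is a tail subunit that ELK1, a target of MAP kinases, binds. In the head, a 67 nt exon of Med28 (chr5:45913675-45913741) was included at 95.7%, 94.5% and 95.1% against 90%, 94% and 88.3% (edgeR adjusted p = 0.342). At the acceptor after it, chr5:45916392, the donor at 45914773 took 92.8%, 92.8% and 92.7% against 87.9%, 92.2% and 87% (edgeR adjusted p = 0.555). A 138 nt exon of Med17 (chr9:15071858-15071995), which encodes a central head subunit, was included at 99.2%, 97.4% and 97.8% against 97.2%, 90% and 96% (edgeR adjusted p = 0.313). These 4 exons kept the genotypes apart without passing the adjusted threshold.

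**Figure D2:**
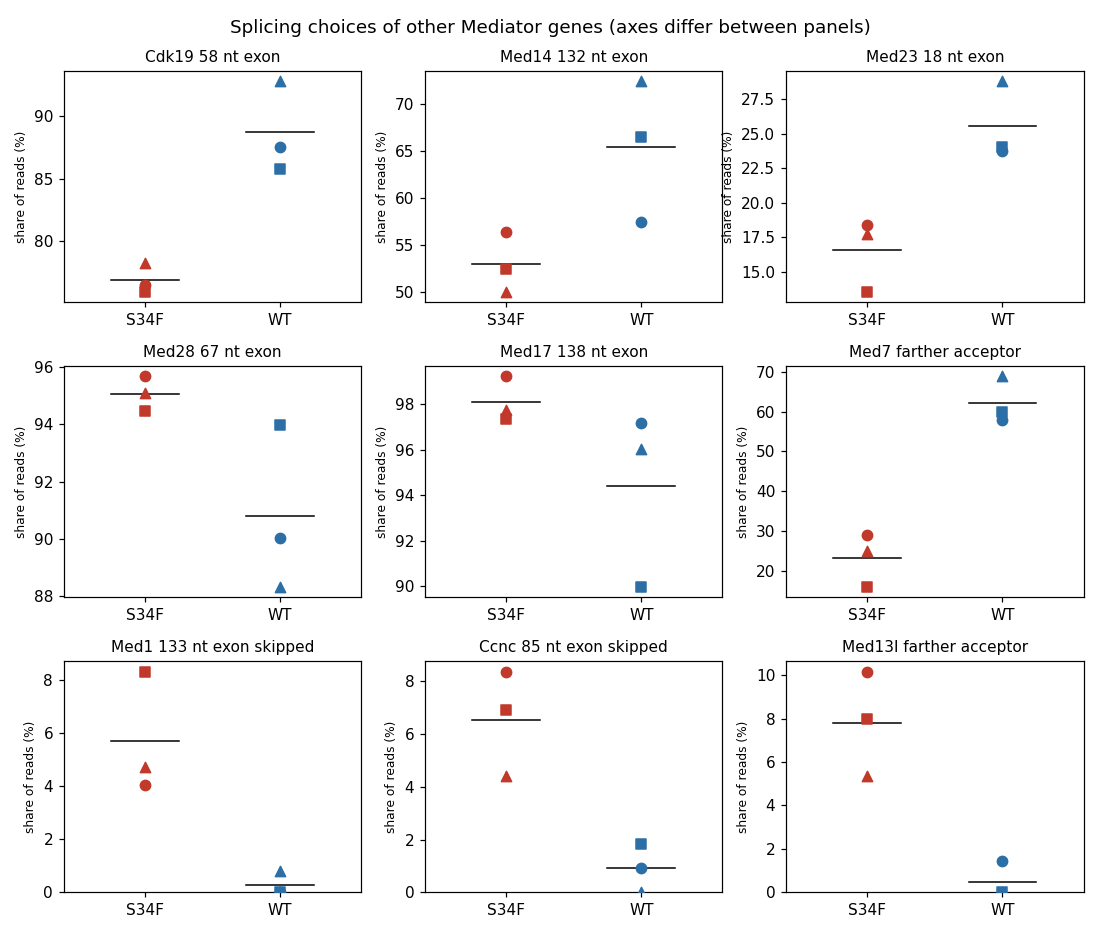
Shares of reads by library for 9 splicing choices of Mediator genes other than Med24, in percent, with S34F at left and WT at right; circles, squares and triangles are replicates 1, 2 and 3 and lines are means. The Med7 acceptor, from the donor at chr11:46250511 only, shows the widest gap (16% to 28.9% against 57.8% to 68.8%). For the Med14 exon the nearest libraries of the genotypes are at 56.4% and 57.4%.

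The base just before the AG of the acceptor differed among these exons. Med24 has A there (AAG), as does the Med17 exon, and the Med28 exon has C (CAG). These 3 exons had a higher mean inclusion in S34F. The exons of Cdk19, Med1, Med14, Med23 and Ccnc, which had a lower inclusion or more skipping in S34F, have T (TAG). The exon after the skipped one has C in all of these genes except Ccnc and Med28, where it has T, so that both acceptors of the Ccnc choice end in TAG. At Med13l, and at Med7 from the donor at chr11:46250511, the acceptor with the higher share in S34F has C and the other T. From the Med7 donor at chr11:46250693 the acceptor with T had the higher mean share in S34F (21.5% against 19.6%), and the genotypes overlapped. These choices were picked for their differences, so the pattern among them is a description. Over all 23 Mediator exons tested, 5 have T before the AG and 0 of the 5 had a higher inclusion in S34F (median change -9.00 points), 13 have C with 6 higher, and 4 have A with 3 higher. Over all exons tested, 21.7% of 2363 exons with T were higher in S34F (median -2.81 points), 55.6% of 4172 with C (median 0.37) and 68.0% of 607 with A (median 1.45). The 5 Mediator exons with T are the Cdk19, Med14 and Med23 exons above and a pair of Cdk8 exons of 72 and 129 nt, whose changes were -4.69 and -0.55 points. The 129 nt exon shares its downstream and skipping reads with the nested Cdk8 exons of 114 and 144 nt. Its own acceptor had only 18, 9 and 21 reads in S34F and 10, 13 and 41 in WT. Its inclusion level thus rests mostly on shared reads and says little about this acceptor. Among the 389 acceptors of Mediator junctions, 59.6% have C, 33.2% T and 6.43% A before the AG, against 62.7%, 30.6% and 6.32% of 129003 acceptors in all.

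At the gene level, 0 of the 32 Mediator genes differed between the genotypes in edgeR (0.0% of 13905 genes) or in DESeq2 (0.69%). In S34F 19 were higher and 13 lower, with a median log2 fold change of 0.09 against -0.01 over all genes. The lowest adjusted p was 0.548 in edgeR and 0.424 in DESeq2, and 0.455 among the 31 with an adjusted p in the authors' deposited table. At an unadjusted edgeR p under 0.05 there were 2 of 32 (9.1% over all genes), Med23 and Med1, both higher in S34F (4.39%). The libraries of the genotypes did not overlap for 3 of 32 (15.6%), which were Med23, Med1 and Med14, all higher in S34F (7.16%). In these bulk samples fewer cells of a type and less RNA per cell cannot be told apart.

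Med1 was at 192, 180 and 185 CPM in S34F and 174, 152 and 144 in WT, a log2 fold change of 0.25 ± 0.10 (SE; edgeR adjusted p = 0.548). Med23 was at 90.8, 86.9 and 86.6 CPM in S34F and 83.1, 67.6 and 66.6 in WT, a log2 fold change of 0.28 ± 0.11 (edgeR adjusted p = 0.548). In both, WT replicate 1 was the WT library nearest to S34F. Med24 itself was at 96.0, 90.8 and 97.6 CPM in S34F and 107, 56.3 and 62.9 in WT, a log2 fold change of 0.33 ± 0.23 (edgeR adjusted p = 0.636). For Med24 the WT libraries fell on either side of the S34F libraries. WT replicate 1 thus went with S34F in the gene level of Med24 and with the other WT libraries in the inclusion of its exon (14.7%).

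All 5 tail genes had higher means in S34F, with log2 fold changes of 0.20 to 0.44, and in all 5 WT replicate 1 was above WT replicates 2 and 3. Med25, whose product binds activation domains, was at 25.3, 27.3 and 25.9 CPM in S34F and 27.8, 13.8 and 16.5 in WT. Med16 was at 41.9, 44.9 and 46.6 CPM in S34F and 51.7, 27.6 and 30.9 in WT. In the kinase module WT replicate 1 was above WT replicates 2 and 3 in 4 of 6 genes, Med12, Med13, Med13l and Cdk19. Med12 was at 87.1, 67.1 and 82.1 CPM in S34F and 96.2, 51.9 and 55.0 in WT. MED12 activates the kinase and MED13 or its paralogue tethers the module to the core. The head genes ran the other way: 8 of 12 were lower in S34F, with log2 fold changes of -0.29 to 0.18 over the module, and in 10 of 12 WT replicate 1 was the lowest WT library. Among the middle genes 5 were higher and 4 lower, and Med4 was at 25.4, 27.8 and 28.0 CPM in S34F and 23.7, 44.2 and 36.8 in WT.

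The calls at this level therefore hang on WT replicate 1. Without it, edgeR called 8 of the 32 genes (8.42% of 13921 genes), 7 higher in S34F (6.72%) and 1 lower. These were Med16, Med23, Med24 and Med25 in the tail, Med12, Med13 and Med13l in the kinase module, and Med4, the lower one, in the middle module. Without it the log2 fold change of Med24 was 0.67 and that of Med25 0.79. DESeq2 called 14 of the 32 without it (18.0%). Leaving out any of the other 5 libraries left 0 Mediator genes called by edgeR. Replicate 1 was male in both genotypes, so without WT replicate 1 only S34F has a male library. The part of this in the calls was not tested.

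**Figure D3:**
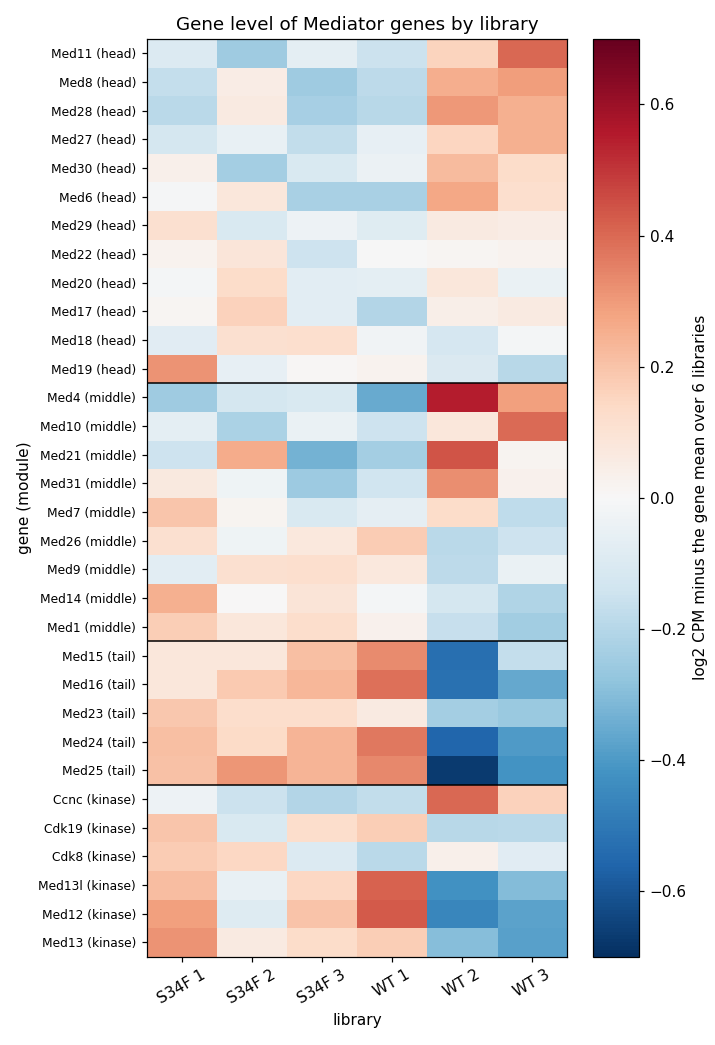
Gene level of the 32 Mediator genes by library, as log2 CPM minus the gene's mean over the 6 libraries (red higher, blue lower), with genes grouped by module. WT replicates 2 and 3 are low for all 5 tail genes, and WT replicate 1 is not.

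**Figure D4:**
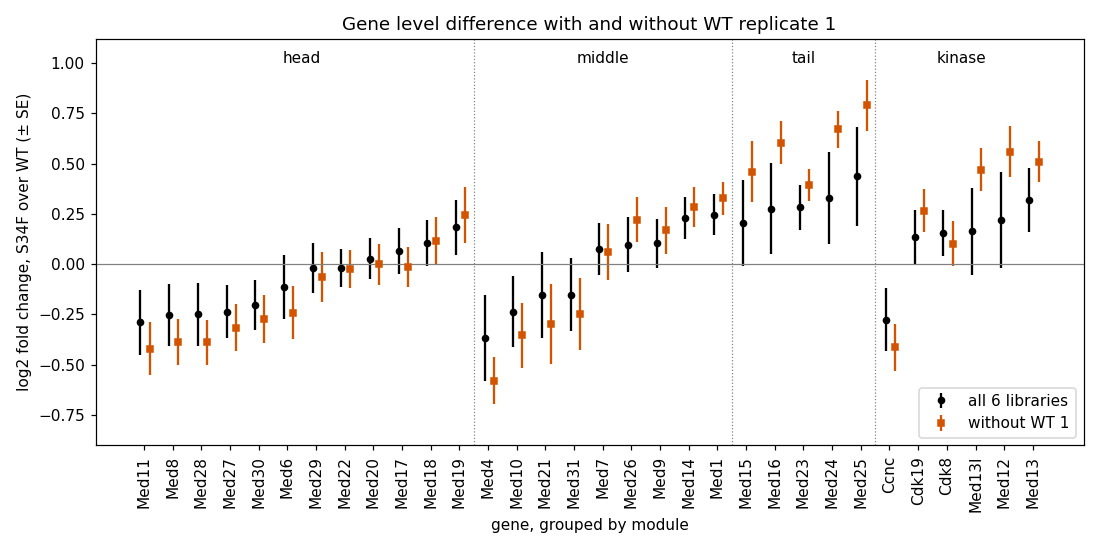
Log2 fold change of S34F over WT with its standard error for each Mediator gene, from all 6 libraries (black) and without WT replicate 1 (orange). The tail genes move from 0.20 to 0.44 up to 0.39 to 0.79.

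The difference between the genotypes followed transcript length among the Mediator genes. Across the 32 genes, which share their libraries, Spearman's rho between the length of the longest coding transcript and the log2 fold change was 0.61. With the log2 fold change without WT replicate 1 it was also 0.61. It was 0.58 between length and the ratio of WT replicate 1 to the mean of WT replicates 2 and 3. Over 12610 genes with a transcript these were 0.20, 0.25 and 0.24. The kinase module has the longest transcripts (median 6373.5 nt) and the head the shortest (1714.5 nt). For GC content the rho with the log2 fold change was 0.21 among the Mediator genes and -0.14 over all genes. With the ratio of WT replicate 1 to the mean of WT replicates 2 and 3 it was 0.43 and 0.22. The tail had the highest median GC content (56.4%), against 47.5% to 48.3% in the other modules. The part of length and of GC content in the module differences was not tested.

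Levels of the genes relative to each other are given per length, as the authors' FPKM averaged over 6 libraries. FPKM and CPM scale the libraries differently, so FPKM is used here between genes only. Med28 in the head was the highest, at 28.8, 29.4 and 29.4 FPKM in S34F and 31.1, 48.4 and 57.8 in WT, followed by Med21 in the middle module at 18.1, 20.5 and 17.0 in S34F and 19.2, 31.1 and 28.7 in WT. The lowest were Med10 in the middle module (1.26, 1.02 and 1.32 against 1.32, 1.93 and 2.71 FPKM) and Med15 in the tail (2.99, 2.20 and 3.10 against 3.41, 1.95 and 2.88 FPKM). Med24 was the highest of the tail, at 17.5, 13.4 and 17.8 FPKM in S34F and 19.4, 11.2 and 15.5 in WT. In the kinase module Cdk19 was the highest (14.2, 9.88 and 14.3 against 15.9, 12.5 and 15.6 FPKM) and Med13l the lowest (5.59, 3.69 and 5.43 against 6.74, 3.96 and 5.11). In the head the lowest was Med19, at 7.33, 4.68 and 6.38 FPKM in S34F and 6.56, 6.10 and 7.23 in WT. Every gene overlapped over the 6 libraries with the next one in rank. With CPM per kilobase of the longest coding transcript instead, an alternative chosen after seeing the data, Med28 went from rank 1 to 23 and Med10 from 32 to 24, while Med21 (rank 1) and Med15 (rank 32) took the ends.

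**Figure D5:**
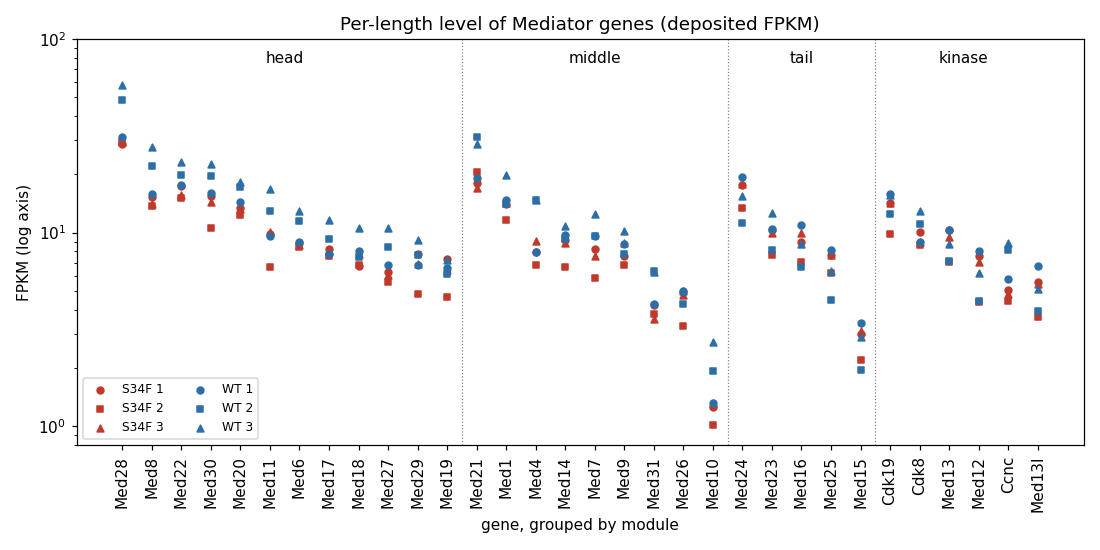
Deposited FPKM (log axis) of the 32 Mediator genes in each library, ordered by mean within module; red is S34F, blue is WT, and marker shapes are replicates 1 to 3. Means run from 1.59 for Med10 to 37.5 for Med28.

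The machinery that Mediator works with gave 0 calls as well. Of 12 genes of RNA polymerase II subunits, 5 were higher and 7 lower in S34F with a median log2 fold change of -0.05, and 0 passed edgeR or DESeq2. Of 31 genes of general transcription factors, listed on 32 rows because Taf9 has 2, 10 rows were higher and 22 lower with a median of -0.08, and 0 passed either tool. Without WT replicate 1 edgeR called 4 of these 32 rows (8.42% over all genes), Ercc3 and Mnat1 lower and Taf4a and Taf3 higher. It called 0 of the 12 polymerase genes. DESeq2 without WT replicate 1 called 8 of the 32 rows and 3 of the 12 polymerase genes (18.0% over all genes).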

How the data were processed

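The authors deposited raw counts per gene and per splice junction for 6 libraries. Per the file headers, the tables also hold the authors' fold change as a ratio, log2 fold changes, p-values, a mean signal per junction, a test statistic and dispersion (scores) and FPKM per gene; apart from the FPKM and the named adjusted p-values these were not used. TopHat 2.0.8 and mm9 are named in the series text; Bowtie2 2.1.0, Cufflinks 2.1.1, HTSeq 0.5.4p1 and DESeq2 1.6.1 are listed in the submitters' processing notes. No source used here gives the annotation or the strand setting of the counting, so reads of Mediator genes and their antisense neighbours could be mixed.

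Gene counts were tested with edgeR 4.0.16 (TMM scaling, default filter, quasi-likelihood test) in R 4.3.3 on the whole table, with DESeq2 1.42.0 as alternative. For splicing, 2 counts per library (the form and its alternatives) were tested for an interaction of form and genotype, with limma 3.58.1 as further alternative. Events needed 20 reads in every library and both forms at 2% (exons of 10 to 1000 nt) or 1% (acceptors, donors) of reads. P-values were two-sided and adjusted by Benjamini-Hochberg over the whole table, with a threshold of 0.05. The event fit first estimated the dispersion. After its results on these data had been seen it was replaced by a quasi-Poisson fit (dispersion 0, robust). The reason was that on simulated data the first fit recovered few or none of the changed events. The spread in that simulation was set by hand rather than estimated from these libraries, and several settings were compared on it. Whether the simulation matches these data was not tested. The replacement raised the number of calls, and both counts are given under the processing alternatives. Junctions are printed by the exon bases that flank the intron: 0.0% of GT-AG introns matched the genome as printed and 99.98% did after an inward shift of 1 base.

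The Mediator genes, the lists and the alternatives were chosen with earlier results of these data known. Values by library are given for Med24, for genes with an unadjusted edgeR p under 0.05 or a DESeq2 call, for the highest and lowest gene of each module, and for splicing events with such a p or call or a change of 10 points or more. Med4, Med7, Med12, Med16 and Med25 were added at gene level after their values were seen. Whether pools shared marrow donors is not given, and p-values measure the spread between these pools.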

Additional observations from a re-analysis of the deposited data

How the results depend on the processing

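At the gene level edgeR called 0 genes in all; DESeq2 called 96, edgeR with the replicate block 5 and DESeq2 with the replicate block 445. Leaving out 1 library gave 0 to 1172 genes in edgeR and 43 to 2502 in DESeq2, of which 0 to 8 and 0 to 14 were Mediator genes, the highest of each without WT replicate 1. Against 76 cassette exons called, edgeR with an estimated dispersion, the fit used first, called 2, limma 0 and the replicate block 266; without 1 library the count was 5 to 157 (DESeq2 18 to 130). Against 54 acceptor choices, the estimated dispersion gave 0, DESeq2 255 and the replicate block 124; without 1 library it was 14 to 77 (DESeq2 77 to 422). Against 34 donor choices, the estimated dispersion gave 2, DESeq2 144 and the replicate block 106; without 1 library it was 13 to 59 (DESeq2 56 to 284). Among the Mediator events the main count of 0 became 1 exon, that of Cdk19, at 50 reads (adjusted p = 0.0493), with the replicate block in edgeR (adjusted p = 0.00263, but 0.105 with the block in DESeq2) and without WT replicate 2; it became 2 acceptor choices and 1 donor choice with DESeq2, in Med7 and Med1. With DESeq2 without 1 library it was 0 to 2 acceptor choices and 0 to 1 donor choices. Without WT replicate 1 these were in Med13l and Med7, without WT replicate 2 in Cdk8 (adjusted p = 0.0320) and without WT replicate 3 in Med1, and there were 0 without any S34F library or with the block in DESeq2. The estimated dispersion as an alternative, DESeq2 with the block and DESeq2 without 1 library were added after seeing the data. The cause of these differences was not tested. The main fits did not use the replicate numbers. Deviations of same-numbered libraries correlated at 0.27, 0.34 and 0.04 for replicates 1, 2 and 3. Those of libraries with different numbers correlated at -0.40 to 0.17. The values of replicates 1 and 2 lay above this range and that of replicate 3 lay within it. Replicate 1 was male in both genotypes. Whether the libraries are matched by number was not tested. The Med24 difference was 20.4 to 26.0 points without 1 library. No direction of a Mediator gene or event named by the rule reversed. The junction reads limit the minor forms of Ccnc, Med1 and Med13l, which rest on 25 reads or fewer per library.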

Other observations

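Med12l, the paralogue of Med12 outside the set, was at 22.7, 14.3 and 18.3 CPM in S34F and 25.1, 14.2 and 19.0 in WT, and the genotypes overlapped (log2 fold change -0.08, edgeR adjusted p = 0.924).

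A pair of junctions within the noncoding exon of Med7 had reads in replicate 2 of both genotypes only. In S34F the junction chr11:46253326-46253396, whose acceptor is not annotated, had 19 reads and chr11:46253326-46253429 had 7. In WT they had 44 and 15. The other 4 libraries were listed at 0 for both. Across all genes, 47 of 151811 junctions had reads in replicate 2 of both genotypes and 0 elsewhere, 177 did so for replicate 1 and 68 for replicate 3. These are values only, and no explanation was tested.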
